A study of Homo sapiens with 6 samples.

Results

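The genes described here are 37 textbook members of the response to tumor necrosis factor (TNF) and of the NF-kB pathway, out of 28307 gene symbols in the deposited gene tables. They were listed by name under a rule that did not use their values, though earlier results of these data were known. The list holds NF-kB subunits, inhibitors and feedback regulators, chemokines, cytokines and growth factors, survival and adaptor genes, and other targets. Polyadenylated RNA came from SW480, an established human colon adenocarcinoma line. Control cells (Clover, 3 libraries) carried pLENTI CMV Clover, a lentiviral construct for a green fluorescent protein, and the compared cells (Z18trunc, 3 libraries) carried pLENTI CMV Z18trunc, a truncated form of ZC3H18, which links capped nuclear RNA to RNA surveillance. Both groups were made by lentiviral transduction and antibiotic selection, per the study's methods as stable lines in biological triplicate, and both kept their own ZC3H18 gene. The CMV promoter drives each construct, and neither the labels nor the methods name an added TNF or other cytokine. The question is whether levels of these genes differed between Z18trunc and Clover cells.

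NF-kB is a family of dimeric transcription factors built from RELA, RELB, REL and the processed products of NFKB1 and NFKB2. In resting cells inhibitor proteins such as the NFKBIA product hold the dimers in the cytoplasm. TNF, interleukin-1 and other signals activate a kinase complex that marks the inhibitor for destruction, the dimers enter the nucleus, and they switch on chemokines, cytokines, survival genes and their own inhibitors. In intestinal epithelium this response recruits leukocytes and protects cells from death.

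Levels are normalised to transcripts per 1000000 (TPM), which the authors had scaled for gene length and library size, summed by symbol. ZC3H18 itself was at 57.2 ± 5.39 TPM in Clover and 763 ± 31.2 TPM in Z18trunc (SD, n = 3 in each), a log2 change of 3.72 (limma, adjusted p = 3.21e-05); the construct and the cell's own transcript are not separated in this sum. Aligned fragments ran from 18226033 to 22463310 per library. Of 8 colon epithelium markers 6 were detected and KRT20 and CDX1 were at 0 in every library. The summed level of 7 leukocyte markers was 1.69 to 2.05 TPM in Clover and 0.816 to 1.25 TPM in Z18trunc, with PTPRC and MS4A1 at 0 throughout and CD14 the 1 marker of the 7 that passed 1 TPM. Whether this has a part in the results was not tested. The 5 fibroblast markers summed to 1.65 to 2.28 TPM over both groups with COL3A1 and DCN at 0, and 3 endothelial markers summed to at most 0.503 TPM with PECAM1 and CDH5 at 0. In bulk RNA, fewer cells that express a gene and less RNA per cell cannot be told apart.

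SW480 cells expressed much of the machinery of the pathway but hardly any of its chemokines and interleukins. A mean of at least 1 TPM over the 6 libraries, used as the limit of detection, was reached by 20 of the 37 genes (54.1%), against 13300 of 28307 symbols (47%). Detected were 4 of 5 subunits (NFKB1, NFKB2, RELA, RELB), 4 of 5 inhibitors and feedback regulators (NFKBIA, NFKBIB, NFKBIE, TNIP1), 0 of 8 chemokines, 2 of 7 cytokines and growth factors (CSF1, CSF2), 4 of 6 survival and adaptor genes (BIRC2, TRAF2, CFLAR, BCL2L1) and all 6 other targets (TNFAIP2, ICAM1, SOD2, IER3, PLAU, CD83). Means above 100 TPM were reached by 4 genes, namely IER3, BCL2L1, TNIP1 and RELA. Of the 17 genes under the limit, 6 were at 0 in every library (CXCL10, CCL2, CCL5, CCL20, IL1A, IL1B) and 11 had a value above 0 in at least 1 library. Just inside the limit were CSF1 at 1.32 TPM and CSF2 at 1.42 TPM, and just outside it REL at 0.959 TPM and TRAF1 at 0.885 TPM.

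**Figure D1:**
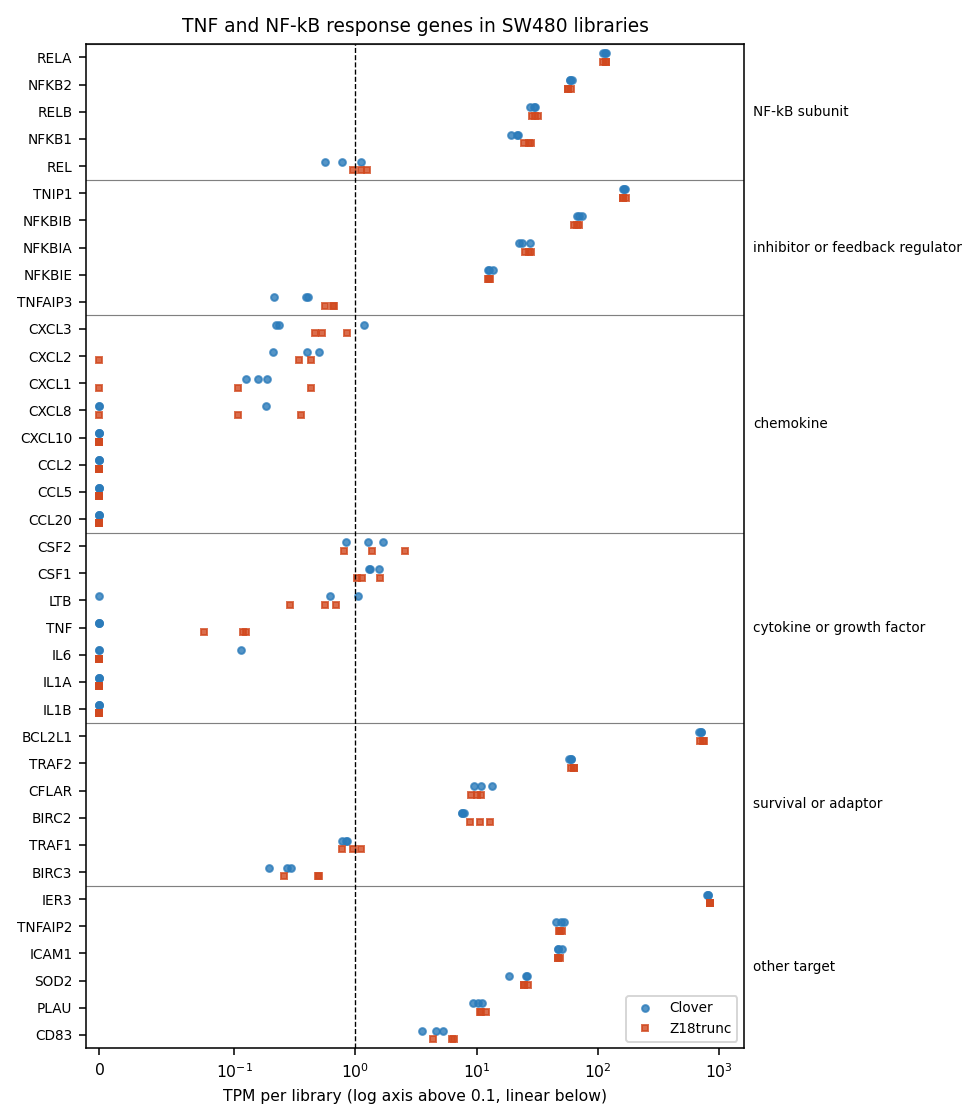
TPM of the response genes in each of the 3 Clover and 3 Z18trunc libraries, 1 row per gene grouped by role, 1 point per library, on a log axis on which 0 is drawn at the left edge. IER3 and BCL2L1 lie highest, from 683 to 843 TPM, the chemokines lie below or around 1 TPM or at 0, and the points of both groups lie together in nearly every row.

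The promoters are shown because many of these genes are textbook carriers of the NF-kB consensus, a 10-base motif, and its presence is set here beside the level of each gene. RefSeq promoters (GRCh38.p14, 250 bases before to 50 after each start) were matched for 31 of the 37 genes, all but RELB, NFKBIE, IER3, CSF1, CCL2 and CCL5, and the consensus was searched on both strands. It was present in 17 of 31 (54.8%), against 1937 of 27305 symbols with a promoter (7.09%). Among detected genes 7 of 16 held a match (43.8%) and among genes under 1 TPM 10 of 15 (66.7%), so matches were found in genes on both sides of the detection limit. The genes were listed as NF-kB targets to begin with, and a match describes letters in this window and not a bound site. Below, 30 bases of the coding strand are given with the match in capitals, 1 match per gene. First come the 7 detected genes and then 5 genes under 1 TPM chosen after the matches were seen. NFKB2, NFKBIB, CD83, CXCL1, CXCL2, CXCL3 and CXCL10 held further matches, some of them overlapping, that are not shown.
NFKB1, chr4:102501300-102501329, plus strand, match from -49: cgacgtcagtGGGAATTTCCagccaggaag
NFKB2, chr10:102395674-102395703, plus strand, match from -21: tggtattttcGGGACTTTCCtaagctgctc
NFKBIA, chr14:35404811-35404840, minus strand, match from -81: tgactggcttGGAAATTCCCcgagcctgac
NFKBIB, chr19:38899931-38899960, plus strand, match from -28: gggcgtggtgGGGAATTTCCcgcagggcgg
TNIP1, chr5:151081057-151081086, minus strand, match from -42: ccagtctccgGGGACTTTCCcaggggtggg
CFLAR, chr2:201118609-201118638, plus strand, match from -97: cgcggggggcGGGGAATTCCgcagacagga
CD83, chr6:14117687-14117716, plus strand, match from -75: ctgcccgccgGGGAATCCCCcgggctggcg
CXCL1, chr4:73869304-73869333, plus strand, match from -79: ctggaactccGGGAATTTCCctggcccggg
CXCL2, chr4:74099254-74099283, minus strand, match from -78: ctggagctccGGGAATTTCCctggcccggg
CXCL3, chr4:74038749-74038778, minus strand, match from -79: ctggagctccGGGAATTTCCctggcccggc
CXCL10, chr4:76023600-76023629, minus strand, match from -122: tctgcaacatGGGACTTCCCcaggaacagc
IL6, chr7:22727117-22727146, plus strand, match from -73: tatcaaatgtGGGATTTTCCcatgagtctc
Positions count from the annotated start that the entry uses, which for a gene with several starts is 1 of them. The strand given is that of the gene. NFKB1 and NFKBIB, expressed in every library, and the chemokines CXCL1, CXCL2 and CXCL3, each under 1 TPM on average, carried the same 10 letters. In NFKBIA the consensus reads on the opposite strand, where it has these 10 letters too.

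No response gene passed the adjusted threshold between Z18trunc and Clover. With limma on log2(TPM + 1), 0 of the 20 tested genes had an adjusted p under 0.05, against 2 of 13300 genes (0.015%). At unadjusted p below 0.05, 2 genes were higher in Z18trunc, NFKB1 and BIRC2, or 10% of those tested against 25.6% of all genes, and 0 were lower against 2.9%. All 3 Z18trunc values lay above all 3 Clover values for NFKB1, BIRC2 and IER3, or 15% against 30.1% of all genes, and the reverse held for 0 genes against 6.73%. The median log2 change of the response genes was 0.06, beside 0.11 over all genes tested, and 13 of 20 changes (65%) were above 0 against 68%. Each of these shares lay below that of the whole table, the share above 0 only slightly. With 20 genes, a count of 0 beside a share as low as 2.9% or 0.015% tells little. Whether the response genes differ from the whole table was not tested.

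The signs of these small changes varied with the scaling. They were recomputed with quantile normalization, which gives every library the same distribution of values, with median centring, which subtracts the median of each library, and from FPKM, the authors' other length-scaled value. Quantile normalization moved the median of all genes from 0.11 to -0.01, after which 7 of the 20 changes lay above 0 (35%, against 48.9% of all genes) and 0 passed the adjusted threshold (0.00752% of all genes). NFKB1 was then the only response gene higher at unadjusted p below 0.05 (12.8% of all genes), and CFLAR and NFKBIE were lower (10.9% of all genes). Without overlap BCL2L1, IER3 and NFKB1 were then higher (16.8% of all genes) and ICAM1, NFKB2 and NFKBIE lower (16.2% of all genes). Of the 20 intervals (95%, per gene, unadjusted), 16 lay wholly within 0.5 of 0 on the log2 scale and 11 within 0.25, and those reaching beyond 0.5 belonged to BIRC2, CD83, CSF2 and NFKB1.

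**Figure D2:**
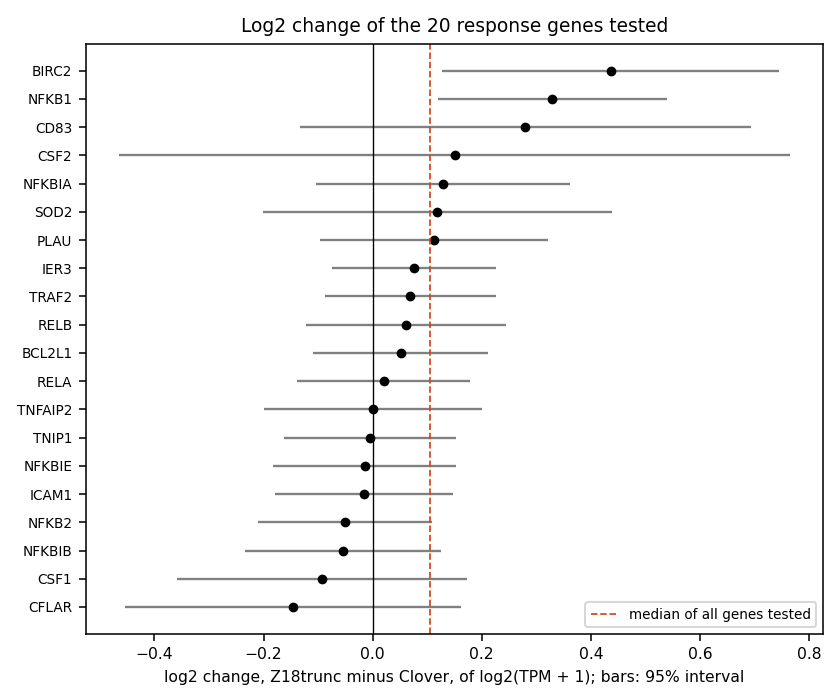
Log2 change (Z18trunc minus Clover, of log2(TPM + 1)) of the 20 tested response genes, with bars for the 95% interval and a dashed line at the median of all genes tested. Only the intervals of BIRC2 and NFKB1 lie wholly above 0, and none lies wholly below it.

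Among the subunits, NFKB1, the gene for the p105 precursor of p50, had the clearest difference in level. NFKB1 (chr4:102501359-102617302, plus strand, hg38) was at 21.9, 19.0 and 21.6 TPM in Clover and at 27.9, 26.9 and 24.6 TPM in Z18trunc. All Z18trunc libraries lay above all Clover libraries, with means of 20.9 ± 1.58 and 26.4 ± 1.71 TPM (SD, n = 3 in each). The log2 change was 0.33 (SE 0.09, 95% interval 0.12 to 0.54), with an unadjusted p of 0.00774 and an adjusted p of 0.0851 by limma. Over the alternatives tried the adjusted p of NFKB1 ran from 0.0576 to 0.234, and the change was 0.19 after quantile normalization.

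RELA, the main activating subunit, stood at 115, 109.6 and 113 TPM in Clover and at 115, 117 and 111 TPM in Z18trunc. The groups overlapped, and the log2 change was 0.02 (95% interval -0.14 to 0.18, adjusted p = 0.871), with its sign turning to negative under FPKM, quantile normalization and median centring. NFKB2, the precursor of p52 in the non-canonical branch, was at 59.1, 61.4 and 58.2 TPM in Clover and at 56.8, 56.3 and 59.3 TPM in Z18trunc, also overlapping (log2 change -0.05, adjusted p = 0.654). RELB, its usual partner, was at 27.7, 30.03 and 29.4 TPM in Clover and at 32.2, 30.2 and 28.6 TPM in Z18trunc (log2 change 0.06, adjusted p = 0.637, negative under FPKM, quantile normalization and median centring). REL, the subunit best known from lymphocytes, reached at most 1.24 TPM and was tested only in a fit with no filter on low values (log2 change 0.22, adjusted p = 0.365 by limma, groups overlapping). By mean TPM, which is scaled for gene length, the order was RELA, NFKB2, RELB, NFKB1 and REL, and neighbours in that order did not overlap over the 6 libraries except RELB (27.7 to 32.2 TPM) and NFKB1 (19.0 to 27.9 TPM).

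In TPM none of the detected inhibitors and feedback regulators separated the groups, and TNFAIP3 was barely expressed. NFKBIA, the inhibitor that NF-kB induces within minutes of a signal, was at 22.3, 27.3 and 23.6 TPM in Clover and at 27.2, 24.8 and 28.1 TPM in Z18trunc. The groups overlapped, and the log2 change was 0.13 (95% interval -0.10 to 0.36, adjusted p = 0.423; -0.04 with median centring). NFKBIB, a second inhibitor, was at 69.1, 73.3 and 66.5 TPM in Clover and at 67.7, 63.7 and 69.7 TPM in Z18trunc (log2 change -0.05, adjusted p = 0.671). NFKBIE, the inhibitor epsilon, was at 12.5, 12.3 and 13.5 TPM in Clover and at 12.6, 13.0 and 12.3 TPM in Z18trunc (log2 change -0.01, adjusted p = 0.911). Neither separated the groups in TPM. TNIP1, which works with the TNFAIP3 product, was at 161, 163 and 166 TPM in Clover and at 169, 160.1 and 159.8 TPM in Z18trunc, and its groups overlapped as well (95% interval -0.16 to 0.15, adjusted p = 0.971).

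TNFAIP3, the ubiquitin-editing enzyme A20 that ends the response, lay under the limit of detection. It was at 0.410, 0.391 and 0.213 TPM in Clover and at 0.657, 0.558 and 0.663 TPM in Z18trunc. The groups did not overlap, at a coverage of 0.490 to 1.67 reads per base. In a fit with no filter on low values, in which 18.9% of 19182 genes were higher at unadjusted p below 0.05, TNFAIP3 had an unadjusted p of 0.0109 and an adjusted p of 0.125 by limma. In that fit 0.00521% of all genes passed the adjusted threshold and 22.9% were higher without overlap. A long noncoding RNA gene, WAKMAR2, lies on the other strand within its span, and whether the gene tables used strand is not given in the sources used here.

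The 8 chemokines, which attract neutrophils, monocytes and lymphocytes, were at or near 0 in both groups. CXCL10, CCL2, CCL5 and CCL20 were listed at 0 TPM in all 6 libraries. CXCL3 reached 1.18 TPM in 1 Clover library and was at 0.223 to 0.847 TPM in the others. CXCL2 reached at most 0.496 TPM, CXCL1 0.433 TPM and CXCL8 0.355 TPM. CXCL1 and CXCL2 were at 0 in 1 Z18trunc library each, CXCL8 was at 0 in 2 Clover libraries and 1 Z18trunc library, and the groups overlapped for all 4 of these genes. CXCL1, CXCL2 and CXCL3 are close paralogues, among which reads can be split, so their separate values are uncertain. A difference in chemokine RNA was not detectable at this depth.

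Cytokine and growth factor genes were likewise low, with only CSF1 and CSF2 past 1 TPM. CSF1, the macrophage growth factor, was at 1.30, 1.31 and 1.57 TPM in Clover and at 1.03, 1.14 and 1.59 TPM in Z18trunc (log2 change -0.09, adjusted p = 0.623). CSF2, the granulocyte and macrophage growth factor, was at 0.830, 1.69 and 1.26 TPM in Clover and at 1.37, 0.808 and 2.55 TPM in Z18trunc. Its libraries scattered most among the tested genes, with a 95% interval from -0.46 to 0.76 around a log2 change of 0.15 (adjusted p = 0.736). The change of CSF2 was -0.11 without Z18trunc replicate 3 and -0.01 with median centring.

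TNF, the founding ligand, was listed at 0 in the 3 Clover libraries and at 0.124, 0.118 and 0.0774 TPM in the 3 Z18trunc libraries. The groups were apart, but the coverage in Z18trunc was at most 0.317 reads per base, well under 1 read at each position on average. TNF entered the fit with no filter on low values through Z18trunc libraries alone. There it had an unadjusted p of 0.0260 and an adjusted p of 0.166 by limma, and 22.9% of all genes were higher without overlap. LTB, lymphotoxin beta, ranged from 0 to 1.04 TPM with overlapping groups. IL6 had a value in 1 Clover library alone, at 0.114 TPM, and IL1A and IL1B were at 0 in every library.

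Of the survival and adaptor genes, BIRC2 had the largest log2 change of all tested response genes. BIRC2, which encodes the ubiquitin ligase cIAP1 at the TNF receptor (chr11:102347182-102378670, plus strand, hg38), was at 7.87, 7.55 and 7.48 TPM in Clover and at 8.79, 10.7 and 12.9 TPM in Z18trunc. All Z18trunc libraries lay above all Clover libraries, and the Z18trunc libraries scattered about their mean far more (10.8 ± 2.07 TPM against 7.64 ± 0.206 TPM, SD, n = 3). The log2 change was 0.44 (SE 0.13, 95% interval 0.13 to 0.75), with an unadjusted p of 0.0127 and an adjusted p of 0.0962 by limma. After quantile normalization the BIRC2 change was 0.25 and the groups overlapped, and over the alternatives tried its adjusted p ran from 0.0678 to 0.244. BIRC3, its neighbour on the chromosome (chr11:102317484-102339403) and the paralogue for cIAP2, reached at most 0.497 TPM, with overlapping groups.

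BCL2L1, whose main product is the anti-apoptotic BCL-XL, was at 704, 709 and 683 TPM in Clover and at 696, 733 and 744 TPM in Z18trunc. Its groups overlapped, and the log2 change was 0.05 (95% interval -0.11 to 0.21, adjusted p = 0.650; -0.02 in FPKM and -0.11 with median centring). TRAF2, the adaptor that brings BIRC2 to the TNF receptor complex, was at 59.4, 57.7 and 60.1 TPM in Clover and at 63.0, 60.1 and 63.0 TPM in Z18trunc. The lowest Z18trunc library of TRAF2 lay just under the highest Clover library, and the log2 change was 0.07 (adjusted p = 0.527; negative with quantile normalization and median centring). CFLAR, for the caspase-8 inhibitor FLIP, was at 9.50, 10.7 and 13.2 TPM in Clover and at 8.95, 10.0 and 10.8 TPM in Z18trunc. Its groups overlapped, with a log2 change of -0.15 (adjusted p = 0.491) that was -0.32 after quantile normalization (unadjusted p = 0.0387) and -0.03 without Clover replicate 3. Over the alternatives the adjusted p of CFLAR ran from 0.163 to 0.902. TRAF1, an inducible adaptor, reached at most 1.12 TPM, and in the fit with no filter on low values its log2 change was 0.10 (adjusted p = 0.527 by limma, groups overlapping).

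**Figure D3:**
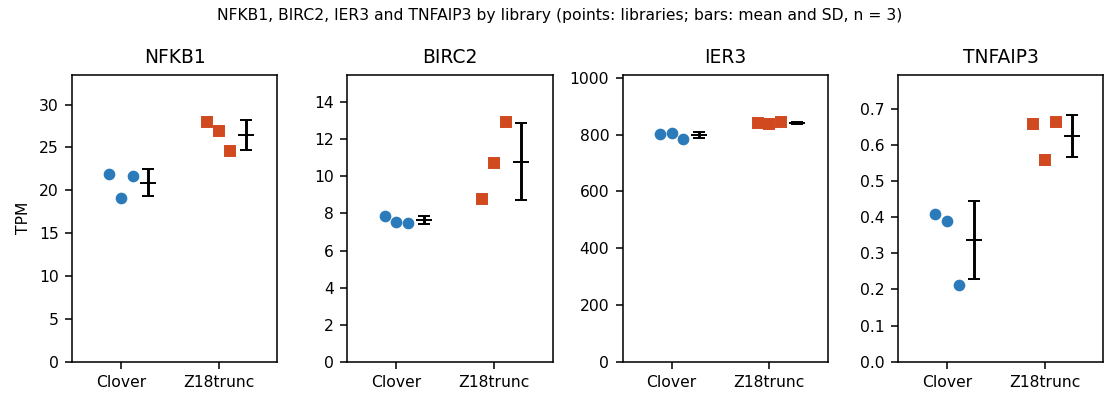
TPM of NFKB1, BIRC2, IER3 and TNFAIP3 in each library, in 1 panel per gene with its own axis; points are libraries and bars the mean and SD (n = 3 in each group). In each panel the 3 Z18trunc points lie above the 3 Clover points; TNFAIP3 stays under 0.7 TPM.

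Among the other targets IER3, an early response gene that affects survival, was the most abundant. IER3 (chr6:30743199-30744547, minus strand, hg38) was at 801, 806 and 786 TPM in Clover and at 841, 837 and 843 TPM in Z18trunc. The groups did not overlap, with means of 798 ± 10.4 and 841 ± 3.21 TPM (SD, n = 3), but the log2 change was small at 0.08 (95% interval -0.07 to 0.23, unadjusted p = 0.268, adjusted p = 0.463 by limma) and turned to -0.09 with median centring. The limma test shares its estimate of the spread over all genes.

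ICAM1, the adhesion molecule that leukocytes bind, is a standard readout of NF-kB activity in epithelium. It was at 46.4, 47.0 and 50.2 TPM in Clover and at 46.6, 48.2 and 47.1 TPM in Z18trunc. The groups overlapped, with a log2 change of -0.02 and a 95% interval from -0.18 to 0.15 (adjusted p = 0.899). TNFAIP2, a TNF-induced gene of the cell cortex, was at 52.8, 44.6 and 49.6 TPM in Clover and at 48.0, 50.5 and 48.3 TPM in Z18trunc (95% interval -0.20 to 0.20, adjusted p = 0.997). SOD2, the mitochondrial superoxide dismutase, was at 25.3, 18.5 and 26.0 TPM in Clover and at 24.3, 24.6 and 26.4 TPM in Z18trunc, where Clover replicate 2 was the low one. The log2 change of SOD2 was 0.12 (adjusted p = 0.597), and it was -0.03 without that library.

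PLAU, the urokinase that activates plasminogen, was at 11.1, 9.38 and 10.2 TPM in Clover and at 10.6, 10.9 and 11.9 TPM in Z18trunc (log2 change 0.11, adjusted p = 0.436; -0.07 after quantile normalization). CD83, a surface protein of activated immune cells, was at 3.53, 5.30 and 4.65 TPM in Clover and at 6.21, 6.52 and 4.33 TPM in Z18trunc. Both overlapped, and for CD83 2 of the 3 Z18trunc libraries lay above every Clover library (log2 change 0.28, 95% interval -0.13 to 0.69, adjusted p = 0.331). By role the medians of the log2 changes were 0.04 for subunits, -0.01 for inhibitors and feedback regulators, 0.03 for cytokines and growth factors, 0.06 for survival and adaptor genes and 0.09 for other targets, each below the 0.11 of all genes tested. Of the 20 tested genes, NFKB1, NFKBIB, CSF2, CFLAR, BCL2L1, SOD2, IER3 and PLAU have a gene on the other strand within their span, and TRAF2 and SOD2 a gene on the same strand, so reads of these pairs may not be told apart.

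The signalling genes upstream of NF-kB were read from a list of 34 genes outside the response genes, of which 29 passed 1 TPM. With limma 0 of 29 had an adjusted p under 0.05. At unadjusted p below 0.05, 8 were higher in Z18trunc (27.6%, against 25.6% of all genes) and 0 lower (against 2.9%). The groups did not overlap for 10 higher (34.5%, against 30.1%) and 2 lower genes (6.9%, against 6.73%). The shares higher and those without overlap were close to those of the whole table. The median log2 change was 0.03, beside 0.11 over all genes tested. After quantile normalization 4 were higher (13.8%, against 12.8%) and 2 lower (6.9%, against 10.9%) at unadjusted p below 0.05. Without Z18trunc replicate 3, 4 were higher, and the share of all genes was not computed there.

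Of the 8 receptors on the list 4 were detected. All 4 belong to the TNF receptor family and are named after their values were seen. TNFRSF12A, the receptor for TWEAK, was the most abundant at 509 ± 22.1 TPM in Clover and 514 ± 12.9 TPM in Z18trunc, and LTBR, the lymphotoxin beta receptor, was at 109.7 ± 1.88 and 111 ± 4.45 TPM (SD, n = 3). Of the receptors for TNF itself, TNFRSF1A was at 133 ± 3.87 TPM in Clover and 131 ± 4.90 TPM in Z18trunc, and TNFRSF1B at 149.6 ± 4.85 and 141 ± 8.56 TPM (SD, n = 3). The adjusted p-values by limma were 0.922 for TNFRSF12A, 0.927 for LTBR, 0.897 for TNFRSF1A and 0.474 for TNFRSF1B. CD40 (mean 0.200 TPM), the interleukin-1 receptor chains IL1R1 (0.0201 TPM) and IL1RAP (0.223 TPM), and TLR3 (0.432 TPM), a sensor of double-stranded RNA, were under the limit. TLR3 was at 0.0766, 0.224 and 0.403 TPM in Clover and at 0.613, 0.611 and 0.665 TPM in Z18trunc, so its groups did not overlap at these low levels. With no filter on low values 22.9% of all genes were higher without overlap.

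Of the 8 kinase complex genes tested, 5 were higher at unadjusted p below 0.05 (62.5%, against 25.6% of all genes) and 0 lower (2.9%), with a median log2 change of 0.31 beside the 0.11 of all genes. This role was set apart after the values were seen. Of 13 adaptors and ligases 3 were higher (23.1%), and of 4 receptors and 4 nuclear or other regulators 0 were. Their medians were 0.09, -0.002 and -0.02. After quantile normalization 3 of the 8 were higher (CHUK, MAP3K7 and TAB3; 37.5%, against 12.8%) and 1 was lower (IKBKG; 12.5%, against 10.9%). The 4 signalling genes with the smallest p were CYLD, a deubiquitinase that restrains the pathway, TAB3 and MAP3K7, an adaptor and the kinase of the TAK1 complex, and CHUK, the kinase IKK alpha. CYLD was at 4.31, 3.46 and 3.90 TPM in Clover and at 5.41, 5.61 and 6.28 TPM in Z18trunc (log2 change 0.47, SE 0.09, adjusted p = 0.0773 by limma). TAB3 was at 4.53, 3.95 and 4.85 TPM in Clover and at 6.32, 5.95 and 7.86 TPM in Z18trunc (0.50, SE 0.12, adjusted p = 0.0800). In both genes every Z18trunc library lay above every Clover library. MAP3K7 was at 9.07, 6.998 and 7.47 TPM in Clover and at 11.1, 10.2 and 11.3 TPM in Z18trunc (0.43, SE 0.10, adjusted p = 0.0812). CHUK was at 6.43, 5.50 and 6.24 TPM in Clover and at 7.47, 8.38 and 9.33 TPM in Z18trunc (0.41, SE 0.10, adjusted p = 0.0823). These groups were apart too, but none of the 4 passed the adjusted threshold. After quantile normalization the changes were 0.29 for CYLD, 0.31 for TAB3, 0.25 for MAP3K7 and 0.23 for CHUK. The 2 signalling genes lower without overlap, named after their values were seen, were TRADD, the adaptor of the TNF receptor, and IKBKG, the regulatory subunit NEMO. TRADD was at 32.0 ± 1.35 TPM in Clover and 28.1 ± 2.29 TPM in Z18trunc (log2 change -0.18, unadjusted p = 0.0723, adjusted p = 0.215; -0.29, with an unadjusted p of 0.0205 and an adjusted p of 0.156, after quantile normalization). IKBKG was at 47.8 ± 0.986 TPM in Clover and 45.1 ± 0.940 TPM in Z18trunc (log2 change -0.08, adjusted p = 0.451; -0.17, adjusted p = 0.171, after quantile normalization).

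**Figure D4:**
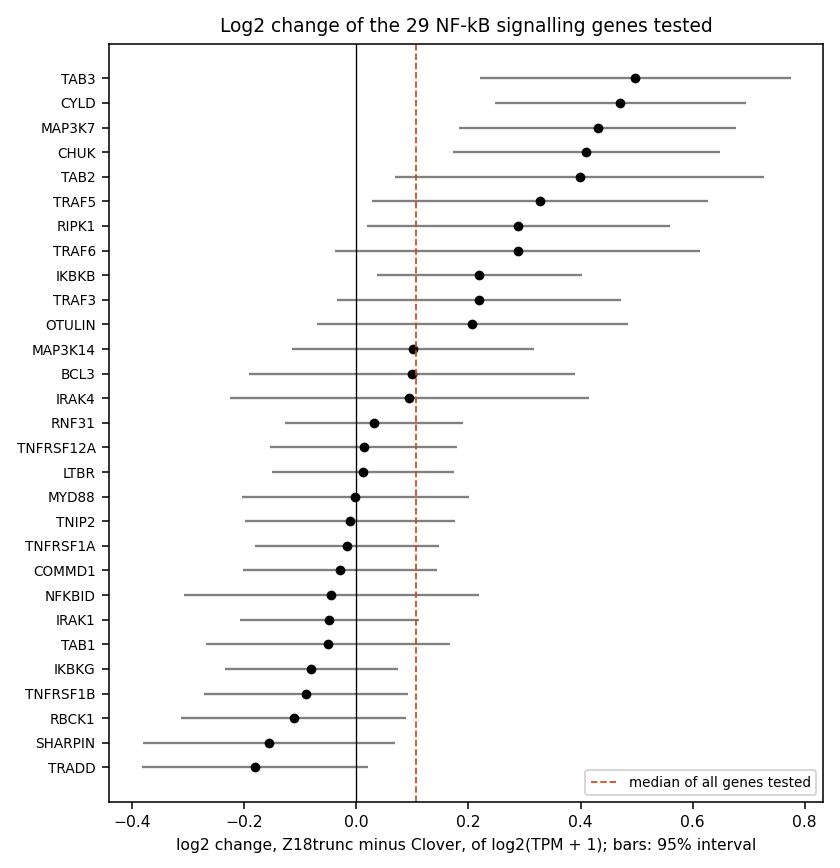
Log2 change (Z18trunc minus Clover, of log2(TPM + 1)) of the 29 tested signalling genes, with bars for the 95% interval and a dashed line at the median of all genes tested. TAB3, CYLD, MAP3K7 and CHUK lie farthest to the right, between 0.41 and 0.50.

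A second readout of the same genes, not used to list them, came from transposable element (TE) copies inside their introns. Uniquely mapped fragments were summed per gene over TE copies of the gene's orientation that lie in its span and touch no exon, and counts were expressed per 1000000 aligned fragments (CPM). Of the 37 response genes 19 had such a copy listed, and 8 reached 30 counts over the 6 libraries, among 4925 genes. With edgeR's quasi-likelihood test 0 of 8 had an adjusted p under 0.05 (0% of 4925 genes) and DESeq2 also called 0. At unadjusted p below 0.05, 1 was higher in Z18trunc, BCL2L1 (10.1% of all genes), and 0 were lower (0.386%). BCL2L1 and CFLAR were higher without overlap (14.3% of all genes), CFLAR by library size alone, and 0 were lower without overlap (1.42%). CFLAR only just reached 30 counts, and did so through its higher Z18trunc counts. Its separation and its change are therefore not read as a result. Of the 8 changes 6, CFLAR among them, were above 0, against 73.6% of all genes. Their median was 0.39, beside 0.28 over all 4925 genes. It was 0.10 without Clover replicate 3 (0.23 over all genes) and 0.23 without Z18trunc replicate 2 (0.29 over all genes). In both fits CFLAR and NFKB1 no longer reached 30 counts and the median was over 6 genes. With TMM scaling, which equalizes the bulk of genes between libraries, it was 0.11, beside -0.01 over all genes.

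BCL2L1 had by far the most intronic TE counts, with 139, 108 and 94 in Clover and 144, 139 and 182 in Z18trunc. In CPM these came to 5.54 ± 0.706 CPM and 7.57 ± 1.13 CPM (SD, n = 3), apart between groups, with a log2 change of 0.45 (unadjusted p = 0.0202, adjusted p = 0.387 by edgeR) that was 0.14 with TMM scaling. SOD2 had 16, 22 and 19 counts in Clover and 35, 18 and 32 in Z18trunc (log2 change 0.54, adjusted p = 0.623), with overlapping CPM. CFLAR had 5, 4 and 2 counts in Clover and 5, 8 and 6 in Z18trunc (log2 change 0.78, adjusted p = 0.751). Its highest Clover and its lowest Z18trunc library both had 5 counts, and their CPM values were apart only through the library sizes. NFKB1, separated in TPM, had 10, 3 and 5 counts in Clover and 6, 5 and 5 in Z18trunc, a log2 change of -0.16 (adjusted p = 0.960) with overlapping CPM.

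The remaining tested genes had between 2 and 19 counts in each library and overlapping groups. RELA had 14, 13 and 3 counts in Clover and 19, 8 and 13 in Z18trunc, RELB 6, 13 and 6 against 8, 15 and 10, TNIP1 13, 12 and 14 against 14, 11 and 10, and TRAF2 12, 8 and 4 against 2, 12 and 11. A difference in these genes was not detectable at such counts. When TE copies of either orientation were counted on the gene's strand, a choice made after the data were seen, 12 response genes were tested among 7703 genes. Of these 5 were higher without overlap (BCL2L1, BIRC2, CFLAR, NFKBIB and SOD2; 41.7%, against 18.4% of all genes) and 0 lower (1.08%). At unadjusted p below 0.05, 4 were higher (the same without SOD2; 33.3%, against 13.7%) and 0 lower (0.26%), and 0 passed the adjusted threshold (0.13% of all genes). The median log2 change of these response genes was 0.50, beside 0.31 over all genes. This count was scaled by library size alone, and TMM scaling was not run on it. BIRC2, which entered only in this count, had 13, 4 and 9 counts in Clover and 22, 13 and 28 in Z18trunc, without overlap in CPM (log2 change 1.26, unadjusted p = 0.00620, adjusted p = 0.186 by edgeR).

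**Figure D5:**
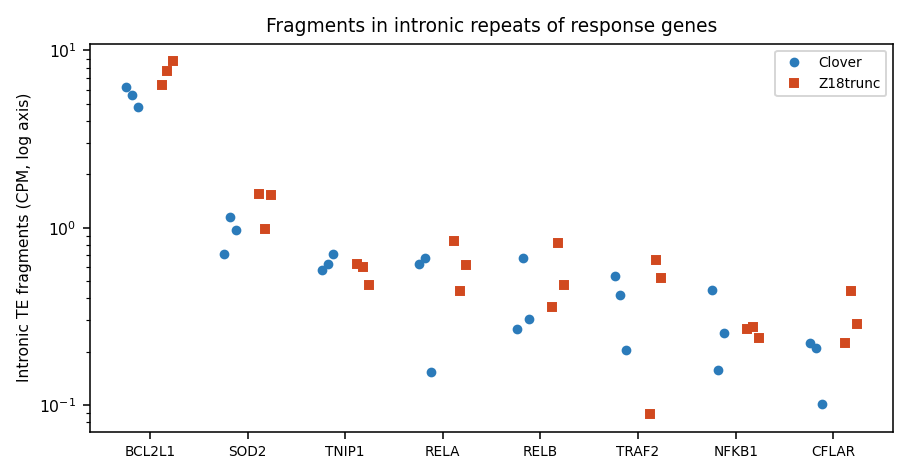
Intronic TE counts (CPM, per 1000000 aligned fragments) of the 8 response genes with at least 30 counts, 1 point per library, for 3 Clover and 3 Z18trunc libraries. BCL2L1 stands above the rest at about 5 to 9 CPM, with its Z18trunc points above its Clover points.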

How the data were processed

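The 6 libraries were polyA-selected, stranded and paired-end. Per the submitters' processing notes, reads were trimmed with cutadapt 4.6 and the build was hg38. The sample titles gave each library its group and replicate number. The deposited gene tables, laid out as by StringTie, give TPM, FPKM and coverage per gene as made by the authors, without counts; the program, its version and its use of strand are not given in the sources used here. TPM was summed by symbol. For the 13300 genes whose mean TPM reached 1, limma 3.58.1 in R 4.3.3 compared log2(TPM + 1) between groups, with Benjamini-Hochberg adjustment over all of them and calls at 0.05. Changes on that scale understate those of low genes. Lines were made in biological triplicate per the study.

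The authors' TE tables, made with SQuIRE (version not given in the sources used here), hold deposited uniquely mapped counts, which are raw whole numbers, and estimated counts in which their expectation-maximization step shared multiply mapped fragments. Counts at loci that touch no GENCODE 44 exon were found with bedtools 2.31.1, summed per gene and tested with edgeR 4.0.16 (at least 30 counts, library size = aligned fragments, no further scaling). Estimated counts were rounded and used in an alternative, as was DESeq2 1.42.0. Counts of 0 or a few cover counting error only. The scripts were tested on simulated data.

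All 37 response genes are named, with every library for those with a mean TPM of at least 1. Of the signalling genes the rule named the 4 with the smallest p and the receptors under that limit; the 4 detected receptors and the genes other than these named within a count were added after their values were seen. The genes and lists were chosen with earlier results of these data known. Same-numbered Clover and Z18trunc libraries did not deviate together (Pearson r between -0.04 and 0.02 over genes), so the numbers were not treated as pairs. Promoters came from RefSeq (GRCh38.p14), and those on chromosomes 4 and 14 were checked against hg38 (2835 of 2835 identical).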

Additional observations from a re-analysis of the deposited data

How the results depend on the processing

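Under every alternative run, 0 response genes and 0 signalling genes passed the adjusted threshold in TPM, also with a mean TPM of at least 5, where 474 of 9973 genes did, and ZC3H18 stayed called. The median log2 change of the response genes (0.06) was -0.0097 in FPKM, -0.016 after quantile normalization and -0.11 with median centring. It was 0.037 to 0.053 with 1 library left out, lowest without Z18trunc replicate 3. Over all genes the median (0.11) was 0.042 in FPKM, -0.006 after quantile normalization and -0.058 with median centring. With 1 library left out the median over all genes ran from 0.069 to 0.134. Those higher at an unadjusted p under 0.05 (2) numbered 4 with no filter (18.9% of all genes). They numbered 1 after quantile normalization (12.8% of all genes) and 0 with median centring. Those lower (0) numbered 2 after quantile normalization (10.9% of all genes) and 3 with median centring. Those without overlap (3) numbered 5 with no filter, where 22.9% of all genes were higher without overlap. They numbered 6 after quantile normalization, where 16.8% of all genes were higher and 16.2% lower without overlap. They numbered 9 with median centring and 4 to 7 with 1 library left out, 7 without Z18trunc replicate 3 and 5 without Z18trunc replicate 1. With fewer libraries such separation is easier to reach. Signalling genes higher at an unadjusted p under 0.05 (8) numbered 5 in FPKM, 4 after quantile normalization (12.8% of all genes) and 4 with median centring. They numbered 4 to 6 with 1 library left out, 4 without Z18trunc replicate 3 and 5 without Clover replicate 2, Z18trunc replicate 1 or Z18trunc replicate 2. Those lower (0) numbered 1 in FPKM, 2 after quantile normalization (10.9% of all genes), 8 with median centring and 0 to 1 with 1 library left out. In FPKM, with median centring and with 1 library left out, the share of all genes was not computed for these counts. Under those settings the counts are not read as results about the response or signalling genes. On intronic TE counts the median over all genes (0.28) was -0.01 with TMM scaling, -0.01 by DESeq2 and 0.20 to 0.36 with 1 library left out. That of the response genes (0.39) was 0.11 with TMM scaling and 0.12 by DESeq2. It was 0.10 to 0.49 with 1 library left out, lowest without Clover replicate 3. The left-out fits held 6 or 7 of the 8 genes, 6 of them (without CFLAR and NFKB1) where the median was lowest, and the fit with no filter held 31 response genes against 20. Median centring subtracts the median of each library from all its genes, so it moved every log2 change in TPM by the same amount. The cause of the other moves was not tested.

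The log2 changes that turned sign were, in FPKM, BCL2L1 -0.0155, RELA -0.0461, RELB -0.00384 and TNFAIP2 -0.0640. After quantile normalization they were PLAU -0.0748, RELA -0.0181, RELB -0.0493, SOD2 -0.0136, TNFAIP2 -0.0925 and TRAF2 -0.00204. With median centring they were BCL2L1 -0.113, CSF2 -0.0142, IER3 -0.0886, NFKBIA -0.0352, PLAU -0.0521, RELA -0.144, RELB -0.103, SOD2 -0.0455, TNFAIP2 -0.164 and TRAF2 -0.0953. With 1 library left out CSF2 ran from -0.109 to 0.377, ICAM1 from -0.0377 to 0.0175, NFKBIE from -0.0385 to 0.0217, RELA from -5.25e-05 to 0.0426, SOD2 from -0.0302 to 0.203, TNFAIP2 from -0.0640 to 0.0544 and TNIP1 from -0.0324 to 0.00955. On intronic TE counts NFKB1 was 0.0750 with estimated counts, TNIP1 0.0376 with TE copies of either orientation, and TRAF2 -0.219 with TMM scaling and -0.206 by DESeq2. With 1 library left out RELA ran there from -0.0184 to 0.683 and TRAF2 from -0.357 to 0.590.

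With the replicate number as a block, 0 response genes were called, 2 were higher at an unadjusted p under 0.05, and the adjusted p was 0.132 for NFKB1 and 0.136 for BIRC2, so the block changed no call. Depth limits the genes under 1 TPM most. The gene tables carry no counts, so a value of 0 has no counting limit.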
